A study of Mus musculus with 8 samples.

Results

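Genes of blood clotting were examined in macrophages and microglia taken from mouse brain tumors. The group held 8 genes chosen by name, not by their values: the clotting genes *F3*, *F7*, *F10*, *F5* and *F13a1*, and the anticoagulant genes *Thbd*, *Tfpi* and *Serpine2*. All 8 were found among the 55450 genes of the count table, and all 8 were among the 16467 genes with enough counts to be tested. The tumors were grown from GL261, a mouse glioma cell line, placed in the brains of WT mice. The cells studied were bone marrow-derived macrophages (BMDM, 5 libraries), which enter the tumor from the blood, sorted as F4/80+ CD11b+ CD45+ Ly6Clo/- Ly6G- CD49dhigh. They were set against microglia, the resident macrophages of the brain (3 libraries), sorted as F4/80+ CD11b+ CD45lo Ly6Clo/- Ly6G- CD49dlo/-. The labels name no age, sex, day after implantation or other treatment, and do not state whether each library is a mouse of its own, so the p-values cover only variation among the sequenced libraries, which may be technical.

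Clotting starts when tissue factor, the product of *F3*, meets factor VII in the blood. The pair activates factor X, which cuts prothrombin to thrombin with factor V as its cofactor, and thrombin turns fibrinogen into fibrin, which factor XIII then cross-links. Tissue factor pathway inhibitor blocks the first steps, thrombomodulin turns thrombin towards activating protein C, and protease nexin-1, the product of *Serpine2*, inhibits thrombin. The liver makes most plasma clotting factors, but macrophages are known to make several of them, and the factor XIII A subunit is a known product of monocytes and tissue macrophages.

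RNA was read as QuantSeq 3′ FWD libraries, which sample the end of each polyadenylated transcript. BMDM libraries held 5890406 to 9169531 counts and microglia libraries 10491469 to 16659154. The BMDM libraries were uneven. Of genes expected at 20 or more counts from the other libraries of the same group, BMDM 4 lacked 14.2% and BMDM 5 lacked 10.6%, where BMDM 1 to 3 lacked 0.919% to 2.37% and the microglia libraries 0.883% to 3.8%. The ribosomal RNA-linked gene model *Gm42418* made up 41.2% and 48.9% of the counts of BMDM 4 and BMDM 5 and 14.8% to 19.8% of those of BMDM 1 to 3, compared with 34% to 47% for microglia. Levels are counts per 1000000 (CPM) scaled by TMM factors, and means carry the SD over 5 BMDM or 3 microglia libraries. By mRNA, 7 of 8 monocyte-derived marker genes were higher in BMDM, among them *Itga4*, the gene of the gate marker CD49d, and 7 of 10 microglia marker genes were lower. The summed markers of neutrophils and of T and NK cells also stood higher in every BMDM library than in any microglia library. The sum of 8 neutrophil markers was 28.1 to 42.3 CPM in BMDM, against 3.56 to 5.57 CPM in microglia, with *Ly6g*, whose product the sort gated out, at 2 counts in BMDM and 0 in microglia. The sum of 8 T and NK cell markers was 20.04 to 184 CPM in BMDM, against 2.56 to 11.6 CPM in microglia. None of the 4 neutrophil and 7 T and NK cell markers tested was called by edgeR, where DESeq2 called 2 and 4 of them higher. Before adjustment edgeR's p was under 0.05 for 2 and 5 of them. Their part in the clotting gene differences was not tested.

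By edgeR's quasi-likelihood test with p-values adjusted over all 16467 genes, the clotting genes *F10* and *F13a1* and the anticoagulant gene *Thbd* were higher in BMDM, and none of the 8 was lower. That is 3 of 8 called, where 1.93% of all genes tested were called in either direction (1.11% higher and 0.814% lower in BMDM). Without adjustment, at p under 0.05, 5 of the 8 were higher, as were 6.49% of all genes tested, and 1 was lower, as were 7.27%. DESeq2, which called 5.55% of all genes, called 4 of the 8 higher and 1 lower. For 5 of the 8 genes every BMDM library stood above every microglia library, as it did for 4.32% of all genes tested, and for 2 of the 8 every BMDM library stood below, as it did for 8.66%. The median log2 fold change, BMDM over microglia, was 4.91 for the 5 clotting genes, -2.55 for the 3 anticoagulant genes, and 0.08 over all genes tested. Neither group ran in 1 direction: *F3* was at -2.43 among the clotting genes, and *Thbd* at 4.63 among the anticoagulant genes. *Tfpi* and *Serpine2*, the negative anticoagulant genes, were not called. In these bulk samples, more cells that make a transcript and more transcript per cell cannot be told apart.

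**Figure D1:**
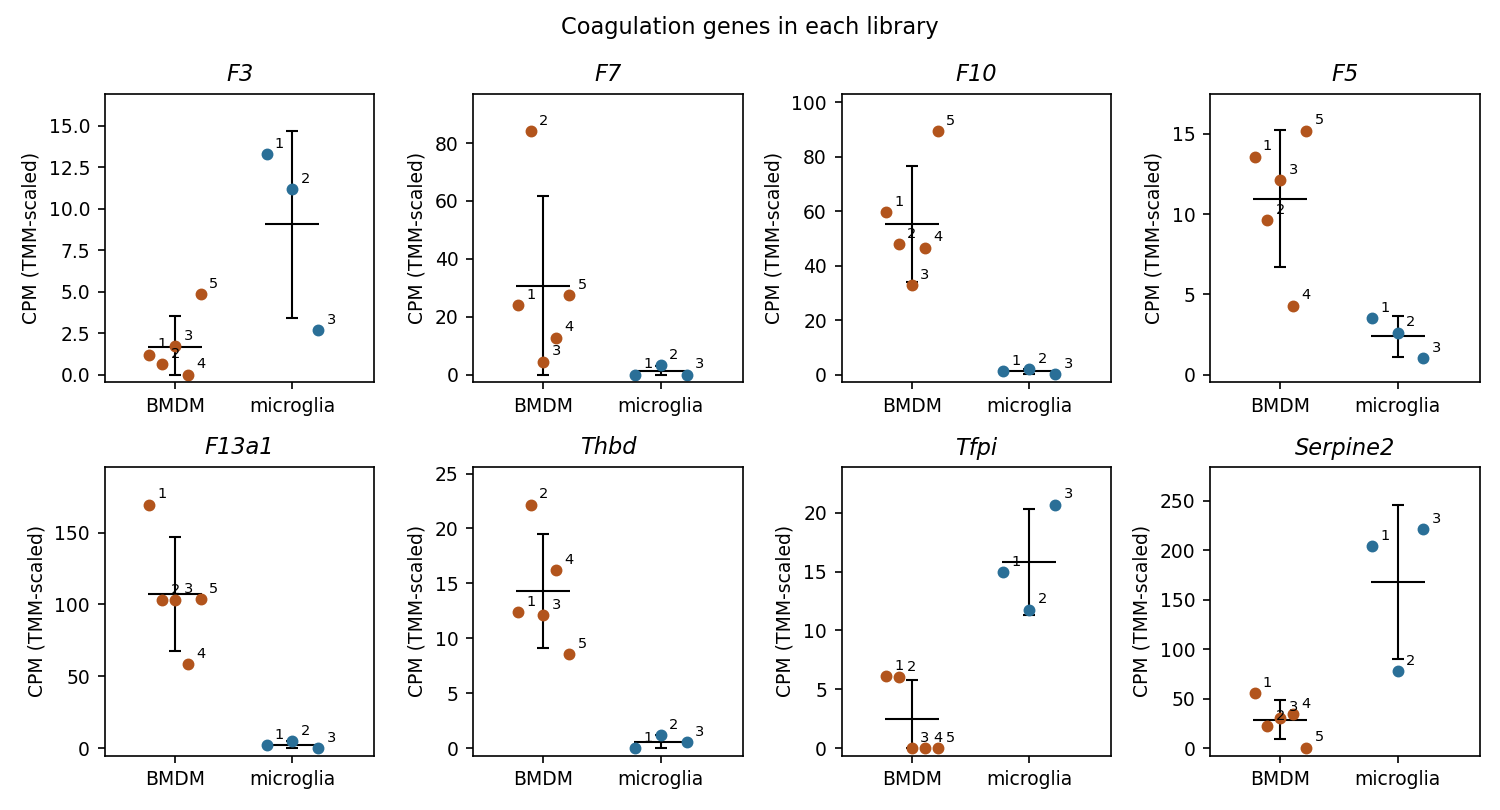
TMM-scaled counts per 1000000 (linear axes) of the 8 coagulation genes in each BMDM library (brown, left) and microglia library (blue, right), with library numbers beside the points, the group mean as a line and the SD as a bar that stops at 0. The groups do not overlap except for *F3*, and *F10*, *F13a1* and *Thbd* stand near 0 in all 3 microglia libraries.

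*F10* encodes factor X, the protease on which the tissue factor and contact routes meet. The gene (ENSMUSG00000031444.16) lies on the plus strand of chromosome 8, from 13037308 to 13056676 in GRCm38. It had 59.8, 47.9, 32.7, 46.6 and 89.4 CPM in BMDM 1 to 5, against 1.31, 1.91 and 0.222 CPM in microglia 1 to 3. Every BMDM library stood above every microglia library, with BMDM 5 the highest and BMDM 3 the lowest of its group. The 293 counts of BMDM 4 and 647 of BMDM 5 show that *F10* was not among the transcripts missing from those libraries. *F10* was 46.9-fold higher in BMDM (log2 fold change 5.55, SE 0.64, edgeR adjusted p = 0.00068), the 9th smallest p-value of all genes tested. The call held under all 18 alternatives, with the log2 fold change between 5.02 and 5.96 and an adjusted p of at most 0.0167.

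*F7* encodes factor VII, the partner of tissue factor, and sits next to *F10*. It spans 13026034 to 13035809 on the same strand of chromosome 8 (ENSMUSG00000031443.7), and 1498 bases separate its end from the start of *F10*. *F7* had 24.0, 84.1, 4.46, 12.7 and 27.5 CPM in BMDM 1 to 5, against 0, 3.12 and 0 CPM in microglia 1 to 3. All BMDM libraries stood above the microglia, but the BMDM values spread 18.9-fold, where those of *F10* spread 2.73-fold. All 31 microglia counts of *F7* came from microglia 2. The log2 fold change was 4.91 (SE 1.4, edgeR adjusted p = 0.109), so *F7* was not called with all libraries. Without microglia 2, the only microglia library with a count, it was called (edgeR adjusted p = 0.016). The BMDM mean (30.6 CPM) was then at least 285-fold higher than the microglia. This limit takes 3 counts over microglia 1 and 3 together as the floor for counting error alone. It holds for the mean and not for each BMDM library. That limit was 160-fold without BMDM 2, and with all 8 libraries the fitted fold was 30.1. The neighbors did not keep 1 ratio: *F7* had 0.401, 1.76, 0.136, 0.273 and 0.308 counts per count of *F10* in BMDM 1 to 5, and 0, 1.63 and 0 in microglia 1 to 3.

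*F7* and *F10* lie side by side, and both stood higher in every BMDM library than in any microglia library. Only *F10* was called, and the start regions of both genes are shown. Each runs from 250 bases before the annotated start to 50 bases after it, 5′ to 3′ on the plus strand (RefSeq, GRCm38.p6), and capitals mark GAGGAA, the core of sites for ETS factors such as PU.1, on either strand.
F7, chr8:13025784-13026083: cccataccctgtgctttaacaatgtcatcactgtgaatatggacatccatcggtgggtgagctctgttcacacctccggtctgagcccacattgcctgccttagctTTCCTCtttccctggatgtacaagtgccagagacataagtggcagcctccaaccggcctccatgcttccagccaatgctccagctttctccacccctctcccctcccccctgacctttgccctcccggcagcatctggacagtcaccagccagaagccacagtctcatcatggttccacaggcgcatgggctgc
F10, chr8:13037058-13037357: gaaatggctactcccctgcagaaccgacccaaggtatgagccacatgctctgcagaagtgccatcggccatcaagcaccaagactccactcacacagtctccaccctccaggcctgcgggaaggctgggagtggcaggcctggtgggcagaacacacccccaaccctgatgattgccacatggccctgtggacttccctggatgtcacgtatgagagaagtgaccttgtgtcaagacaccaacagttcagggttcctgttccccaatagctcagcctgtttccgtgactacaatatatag
The *F7* region held 1 match to GAGGAA, on the minus strand, from 144 to 139 bases before the start. The *F10* region held none. Of 32851 promoters of this length, 28.3% held at least 1. Neither region held, on either strand, the AP-1 motif TGANTCA, which 7.81% of promoters hold. The Sp1 motif GGGCGG (35.7% of promoters) and the TATA box TATAAA (13.6%) were not found in them either.

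The expression pattern of *F7* was nearer to that of *Mmp13* and *Arg1* than to that of its neighbor. Patterns were ranked over the 8 libraries by root mean square difference of centered log2 CPM. The closest of 4735 candidate genes were *Mmp13*, a collagenase (0.81), *Arg1*, the arginine-degrading enzyme (0.92), and *F10* (1.30). *Mmp13* had 46.7, 148, 11.4, 8.6 and 58.7 CPM in BMDM 1 to 5, against 0.0526, 11.6 and 0.779 CPM in microglia 1 to 3. *Arg1* had 364, 676, 153, 113 and 1131 CPM in BMDM 1 to 5, against 5.57, 130.5 and 2.11 CPM in microglia 1 to 3. *F7*, *Mmp13* and *Arg1* were each highest among microglia in microglia 2 and low in BMDM 3 and BMDM 4. *F10* was also highest among microglia in microglia 2 (1.91 CPM) and lowest among BMDM in BMDM 3 and BMDM 4 (32.7 and 46.6 CPM). Among BMDM, *F10* (89.4 CPM) and *Arg1* were highest in BMDM 5, where *F7* and *Mmp13* were highest in BMDM 2. The sum of the 8 monocyte-derived markers was 618 to 3324 CPM in BMDM, against 163 in microglia 1, 187 in microglia 2 and 155 in microglia 3. Most of it in microglia was *Lyz2* (110, 123 and 85.8 CPM in microglia 1 to 3). *Lyz2*, *Itga4*, *Vcan* and *Chil3* (0, 12 and 0 counts in microglia 1 to 3) were highest among microglia in microglia 2. *Ccr2* and *Ly6c2* were highest in microglia 1, and *Plac8* and *Ms4a4c* in microglia 3. The sum of 10 microglia markers was 2945, 1442 and 4059 CPM in microglia 1 to 3. The sum of 7 markers of border-associated macrophages, the macrophages of brain vessels and meninges, was 77.1 CPM in microglia 2, 26.8 in microglia 1 and 15.5 in microglia 3, against 110.5 to 797 in BMDM. Most of the sum in microglia 2 was *Mrc1* (51.6 CPM) and *Pf4* (19.6 CPM). *Folr2*, *Cd163* and *Lyve1* were also highest among microglia there, at low levels. *Cbr2* was lowest there (0.905 CPM, against 2.05 in microglia 1 and 2.78 in microglia 3), and *Clec10a* was highest in microglia 1 (2.63 CPM). The part of these marker sets in the *F7* values was not tested.

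**Figure D2:**
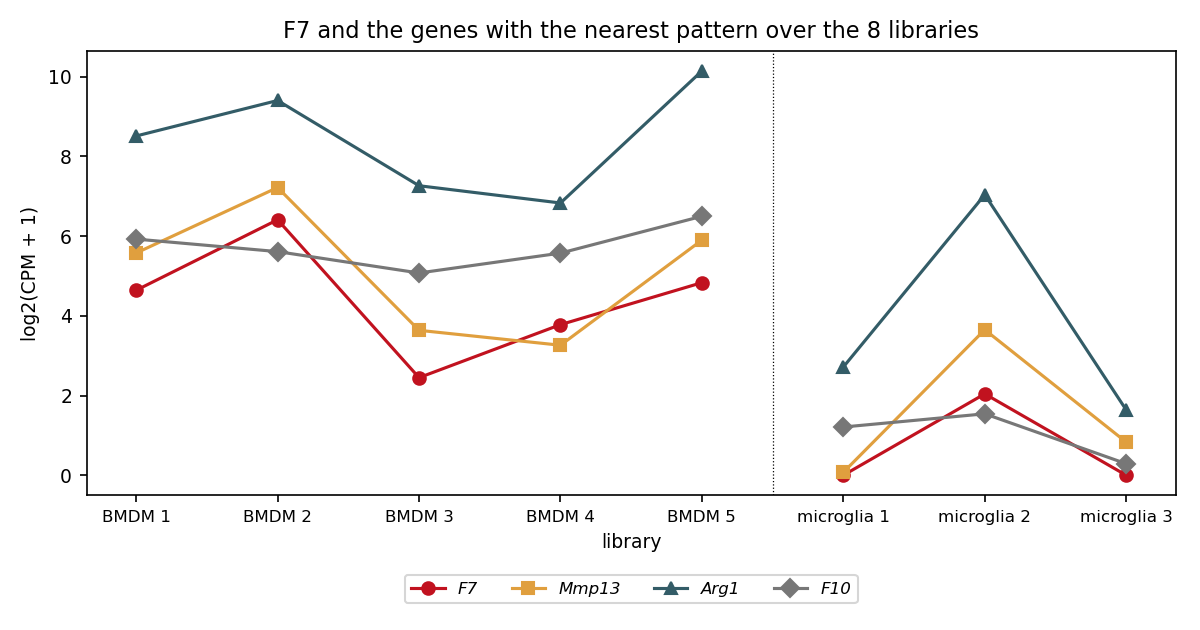
log2(CPM + 1) of *F7*, its 2 nearest genes by pattern (*Mmp13*, *Arg1*) and its neighbor *F10* in each library, BMDM left of the dotted line and microglia right of it. *F7*, *Mmp13* and *Arg1* dip in BMDM 3 and BMDM 4 and peak in microglia 2. *F10* also has its lowest BMDM values in BMDM 3 and BMDM 4 and its highest microglia value in microglia 2. Among BMDM, *F10* and *Arg1* are highest in BMDM 5, and *F7* and *Mmp13* in BMDM 2. The range of *F10* is narrower, between 32.7 and 89.4 CPM in BMDM and below 2 CPM in microglia.

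*F13a1* encodes the catalytic A subunit of factor XIII, the transglutaminase that cross-links fibrin. It lies on the minus strand of chromosome 13, from 36867178 to 37050244 (ENSMUSG00000039109.16). It had 169.5, 103.2, 103.3, 58.4 and 103.5 CPM in BMDM 1 to 5, against 1.79, 5.03 and 0 CPM in microglia 1 to 3. BMDM 1 was the highest and BMDM 4 the lowest of the BMDM, and the lowest stood more than 10-fold above the highest microglia library. *F13a1* was 47.1-fold higher in BMDM (log2 fold change 5.56, SE 0.89, edgeR adjusted p = 0.00488). Without microglia 1 the call was lost (adjusted p = 0.103) at a log2 fold change of 5.38. *F10* had the closest pattern to it (0.83), followed by *Chil3*, a chitinase-like protein (1.18), and *Tmem51* (1.25).

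Platelets also carry factor XIII A, and border-associated macrophages are known for *F13a1*. The sum of 10 platelet markers was 3.43 to 14.5 CPM in BMDM, against 2.72 to 8.68 CPM in microglia, and *Gp1ba* and *Gp1bb* had 0 counts in every library. *Ppbp*, the platelet basic protein gene of that list, had 10, 13, 8, 0 and 105 counts in BMDM 1 to 5, against 0 counts in each microglia library. All 3 platelet markers tested had positive log2 fold changes and none was called by edgeR (1 of the 3 at an unadjusted p under 0.05, and 1 higher by DESeq2). The border-associated markers were 758, 797, 196, 110.5 and 427 CPM in BMDM 1 to 5, against 26.8, 77.1 and 15.5 CPM in microglia 1 to 3. Of the 5 tested, *Pf4*, also a platelet chemokine gene, was higher in BMDM and the others were not called by edgeR. All 5 had positive log2 fold changes (median 2.79), 3 of them at an unadjusted edgeR p under 0.05, and DESeq2 called 2 higher. The part of either marker set in the *F13a1* difference was not tested.

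*F13a1* has 2 annotated starts, and that of its shorter form is shown because it holds the longer PU.1-type sequence GAGGAAGT, found on either strand in 3.2% of promoters. The region runs 5′ to 3′ on the minus strand (RefSeq, GRCm38.p6), with GAGGAA in capitals.
F13a1, chr13:37049164-37049463: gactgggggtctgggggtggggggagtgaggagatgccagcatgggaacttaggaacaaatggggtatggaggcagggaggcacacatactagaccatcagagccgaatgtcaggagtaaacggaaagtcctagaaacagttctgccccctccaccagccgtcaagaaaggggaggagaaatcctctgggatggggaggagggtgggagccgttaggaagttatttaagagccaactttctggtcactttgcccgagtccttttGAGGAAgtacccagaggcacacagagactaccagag
The match lies from 15 to 22 bases after the start. The other start region held 2 matches to GAGGAA and none to GAGGAAGT. Which start the BMDM used was not measured, since the reads mark the 3′ end.

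*F5* encodes factor V, the cofactor of factor X, and lies on the plus strand of chromosome 1, from 164151838 to 164220277 (ENSMUSG00000026579.8). It had 13.6, 9.6, 12.1, 4.3 and 15.2 CPM in BMDM 1 to 5, against 3.52, 2.61 and 1.0 CPM in microglia 1 to 3. The groups did not overlap, but BMDM 4 came close to microglia 1. The log2 fold change was 2.19 (SE 0.78, edgeR adjusted p = 0.198), and *F5* was not called. The nearest pattern was that of *Lgals3* (0.40), which encodes galectin-3.

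*F3* encodes tissue factor, the membrane receptor of factor VII. It lies on the plus strand of chromosome 3, from 121723537 to 121735048 (ENSMUSG00000028128.13). It had 1.2, 0.616, 1.72, 0 and 4.84 CPM in BMDM 1 to 5, against 13.3, 11.2 and 2.67 CPM in microglia 1 to 3. The groups overlapped, since BMDM 5 stood above microglia 3. The log2 fold change was -2.43 (SE 1.18, edgeR adjusted p = 0.391), and *F3* was not called. The 3 nearest patterns were those of *Fbn2*, *Nfib* and *Hmga2* (0.69, 0.73 and 0.80), each highest in BMDM 5 among the BMDM and lowest in microglia 3 among the microglia. The sum of 7 oligodendrocyte-lineage markers was also highest in BMDM 5 among the BMDM (158 CPM, against 75.6 to 130.5 in BMDM 1 to 4) and lowest in microglia 3 among the microglia (91.3 CPM, against 210 and 290 in the others). Its part in the *F3* values was not tested.

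The start region of *F3* is shown because tissue factor is a textbook immediate early gene with paired AP-1 sites. Capitals mark the AP-1 motif TGANTCA, the Sp1 motif GGGCGG, and the letters TATAAA, each on either strand, 5′ to 3′ on the plus strand (RefSeq, GRCm38.p6).
F3, chr3:121723287-121723586: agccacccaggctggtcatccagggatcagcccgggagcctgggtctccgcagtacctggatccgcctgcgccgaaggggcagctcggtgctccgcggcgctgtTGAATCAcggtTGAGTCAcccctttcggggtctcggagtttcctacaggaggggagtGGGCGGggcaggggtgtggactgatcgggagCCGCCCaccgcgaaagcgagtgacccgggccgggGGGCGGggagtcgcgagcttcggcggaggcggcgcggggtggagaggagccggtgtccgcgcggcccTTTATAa
It held 2 AP-1 matches, from 146 to 140 and from 135 to 129 bases before the start, and 3 matches to GGGCGG. Its 1 match to TATAAA lies on the minus strand from 44 to 49 bases after the start, so it is not a TATA box of this start. None of the other start regions examined (1 each for *F7*, *F10*, *F5* and *Serpine2*, 2 each for *F13a1* and *Tfpi*) held TGANTCA.

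*Thbd* encodes thrombomodulin, the thrombin receptor that starts protein C activation. It is a gene of 1 exon on the minus strand of chromosome 2, from 148404466 to 148408188 (ENSMUSG00000074743.4). *Thbd* had 12.4, 22.2, 12.1, 16.2 and 8.57 CPM in BMDM 1 to 5, against 0, 1.21 and 0.556 CPM in microglia 1 to 3. The groups did not overlap, and the lowest BMDM library was BMDM 5. *Thbd* was 24.8-fold higher in BMDM (log2 fold change 4.63, SE 1.06, edgeR adjusted p = 0.0357). The call is close to the threshold: it was lost without microglia 1 or 3 or any 1 of BMDM 1 to 4 (adjusted p 0.0618 to 0.165), with the log2 fold change between 3.98 and 4.69 there. Endothelial cells are the best known source of thrombomodulin. The sum of 10 endothelial markers was 72.9 to 92.6 CPM in BMDM, against 37.3 to 77.3 CPM in microglia, and none of the 9 tested was called by edgeR (1 of the 9 at an unadjusted p under 0.05, and 0 by DESeq2). The nearest patterns to *Thbd* were those of the matrix genes *Emilin2* (0.73) and *Ecm1* (0.78) and the lectin gene *Clec4n* (0.79).

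*Tfpi* encodes tissue factor pathway inhibitor, which blocks factor X and the tissue factor complex. It lies on the minus strand of chromosome 2, from 84432855 to 84476775 (ENSMUSG00000027082.15). It had 6.12, 6.03, 0, 0 and 0 CPM in BMDM 1 to 5, against 14.9, 11.8 and 20.7 CPM in microglia 1 to 3. The BMDM libraries split into 2 with about 6 CPM (46 and 49 counts) and 3 with no count. In the libraries without a count, 3 counts would have been 0.343 CPM in BMDM 3, 0.478 in BMDM 4 and 0.415 in BMDM 5. These floors cover counting error only. BMDM 4 and BMDM 5 lacked 14.2% and 10.6% of genes expected at 20 or more counts, and whether *Tfpi* was lost in that way was not tested. The log2 fold change was -2.69 (SE 1.34, edgeR adjusted p = 0.405), and *Tfpi* was not called although the groups did not overlap. By limma-voom it was called, at -5.20 (adjusted p = 0.0351). BMDM 1 and BMDM 2 were also the libraries with the highest sums of border-associated macrophage markers (758 and 797 CPM, against 110.5 to 427 in BMDM 3 to 5). Of the markers tested, *Pf4* (579 and 393 CPM) and *Cbr2* (14.8 and 19.9 CPM) were highest in those libraries. *Mrc1* (351 CPM) and *Clec10a* (25.2 CPM) were highest in BMDM 5, and *Folr2* (8.6 CPM) in BMDM 4, where *Tfpi* had no count. The part of these markers in the *Tfpi* values was not tested.

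*Serpine2* encodes protease nexin-1, a serpin that inhibits thrombin and urokinase. It lies on the minus strand of chromosome 1, from 79794197 to 79861180 (ENSMUSG00000026249.10). It had 55.5, 22.2, 30.8, 34.2 and 0.415 CPM in BMDM 1 to 5, against 204, 77.9 and 221 CPM in microglia 1 to 3. All microglia libraries stood above all BMDM libraries, and BMDM 5, with 3 counts, stood far below the rest. The log2 fold change was -2.55 (SE 0.77, edgeR adjusted p = 0.124), and *Serpine2* was not called. Without BMDM 5 it was called, with a smaller difference of -2.23 (adjusted p = 0.00852). The nearest patterns, *Ppp1r9a* (0.45), *Golm1* (0.52) and *Capn3* (0.58), shared the drop in BMDM 5, where they had 0, 0.276 and 0 CPM. BMDM 5 lacked 10.6% of all genes expected at 20 or more counts, and the part of such loss in these drops was not tested. Astrocytes also make protease nexin-1, and the sum of 7 astrocyte markers was 21.7 to 57.0 CPM in BMDM, against 100.2 to 164 CPM in microglia. Most of that sum in microglia was *Slc1a3*, a glutamate transporter (10.4 ± 6.12 CPM in BMDM and 115 ± 26.4 CPM in microglia), while *Gfap* had 96 counts in BMDM and 29 in microglia and *Aqp4* 6 and 3. Their part in the *Serpine2* values was not tested.

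**Figure D3:**
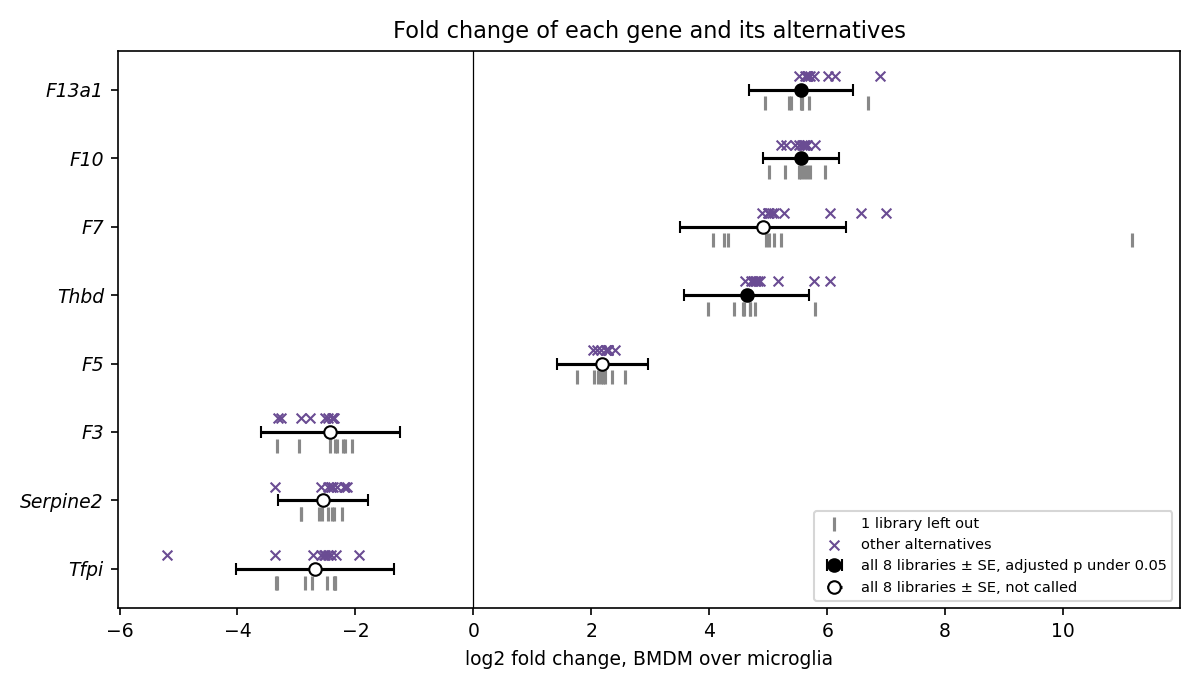
log2 fold change, BMDM over microglia, of each gene with all 8 libraries (circle, SE as bar, filled where the edgeR adjusted p was under 0.05), with 1 library left out (grey ticks) and under the other alternatives (purple crosses). *F10* moves least among the called genes, between 5.02 and 5.96, *F7* reaches 11.16 without microglia 2, where both remaining microglia libraries hold 0 counts, and no value crosses 0.

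More of the 8 genes were called when BMDM 4 and BMDM 5 were set aside. With BMDM 1 to 3 alone against the 3 microglia libraries, *F10*, *F13a1*, *Thbd* and *F5* were higher and *F3* and *Serpine2* lower in BMDM, 6 of 8, where 14.5% of 16182 genes tested were called (6.35% higher and 8.11% lower). *F3* was then at -2.93 (edgeR adjusted p = 0.032), *F5* at 2.28 (0.0269) and *Serpine2* at -2.20 (0.00826). *F7* (adjusted p = 0.0703) and *Tfpi* (0.184) were still not called. In that fit the share of *Gm42418* also differed between the groups without overlap, and its part was not tested. No single BMDM library was high throughout: BMDM 1 held the highest value of *F13a1*, *Tfpi* and *Serpine2*, BMDM 2 of *F7* and *Thbd*, and BMDM 5 of *F10*, *F5* and *F3*.

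Most other genes of the cascade had too few counts to test. Of 18 other coagulation factors, carriers and processing enzymes, 8 had enough counts for the test, and edgeR called none (2 lower and 0 higher without adjustment, while DESeq2 called 1 lower and 0 higher). Their median log2 fold change was -0.90, against 0.08 over all genes. The fibrinogen genes *Fga*, *Fgb* and *Fgg* and the factor XIII B subunit gene *F13b* had 0 counts in every library. Prothrombin, *F2*, had 23 counts in BMDM, 18 of them in BMDM 2, and 0 in microglia. *Lman1* and *Mcfd2* encode the carrier that takes factors V and VIII out of the endoplasmic reticulum. *Lman1* was at 62.4 ± 15.6 CPM in BMDM and 139 ± 16.8 CPM in microglia (log2 fold change -1.16, SE 0.32, edgeR adjusted p = 0.0903). *Mcfd2* was at 41.2 ± 20.4 CPM in BMDM and 23.7 ± 3.67 CPM in microglia (0.80, SE 0.44, adjusted p = 0.477). *Vkorc1*, which recycles the vitamin K needed to finish factors VII and X, was at -1.13 (SE 0.45, adjusted p = 0.268), and *Vwf*, the carrier of factor VIII, at 0.28 (SE 0.96, adjusted p = 0.953).

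Among 10 other anticoagulant genes, 4 were tested, 1 was higher and 1 lower in BMDM, with a median log2 fold change of 1.09. *Pros1* encodes protein S, the cofactor of both activated protein C and tissue factor pathway inhibitor. It had 11.6, 15.3, 17.0, 11.3 and 1.93 CPM in BMDM 1 to 5, against 86.9, 72.4 and 90.2 CPM in microglia 1 to 3. *Pros1* fell to 11.4 ± 5.84 CPM in BMDM, against 83.2 ± 9.47 CPM in microglia (log2 fold change -2.86, SE 0.49, edgeR adjusted p = 0.00744), and it was called lower under all 18 alternatives. *Anxa5*, which covers the phosphatidylserine that clotting complexes assemble on, was higher in BMDM, at 137 ± 70.5 CPM in BMDM and 32.4 ± 6.56 CPM in microglia (log2 fold change 2.08, SE 0.45, adjusted p = 0.025). Its call was lost without any 1 microglia library, without BMDM 3 or BMDM 4, and with library totals alone, with adjusted p from 0.0506 to 0.184. *Procr*, the endothelial protein C receptor, was at 1.98 (SE 0.64, adjusted p = 0.151), and *Serpinc1*, antithrombin, at 0.20 (SE 1.31, adjusted p = 0.976).

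Of the 4 protease-activated receptors, through which cells sense thrombin and factor X, only *F2r* had enough counts for the test. It was at -0.23 (SE 1.29, edgeR adjusted p = 0.973), with 0 to 10.5 CPM in BMDM and 4.15 to 6.03 CPM in microglia. Unadjusted edgeR and DESeq2 called it in neither direction (0 calls each). *F2rl1* had 27 counts in BMDM, all in BMDM 1 and BMDM 4, and 0 in microglia, and *F2rl3* had 0 counts in every library.

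In fibrinolysis, the removal of clots by plasmin, 10 of 12 genes were tested, of which 1 was higher and 0 lower in BMDM (4 higher and 1 lower without adjustment, against the 6.49% and 7.27% of all genes given above, and 2 higher and 0 lower by DESeq2), with a median log2 fold change of 0.41. *Thbs1*, thrombospondin 1, a matrix and platelet granule glycoprotein that also binds plasminogen, was 6.29-fold higher in BMDM, with 142, 109, 202, 301 and 337 CPM in BMDM 1 to 5, against 20.7, 46.8 and 36.7 CPM in microglia 1 to 3 (log2 fold change 2.65, SE 0.49, adjusted p = 0.0111). The *Thbs1* call was lost without microglia 1 (adjusted p = 0.0757) or microglia 3 (0.068). *Plaur*, the urokinase receptor, was at 1.27 (SE 0.40, adjusted p = 0.142), and *Plgrkt*, a plasminogen receptor, at -1.45 (SE 0.44, adjusted p = 0.122). *Anxa2*, a cell-surface site for plasminogen activation, was at 0.80 (SE 0.37, adjusted p = 0.35), and *Lrp1*, which clears serpin and protease complexes, at 0.45 (SE 0.38, adjusted p = 0.711).

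**Figure D4:**
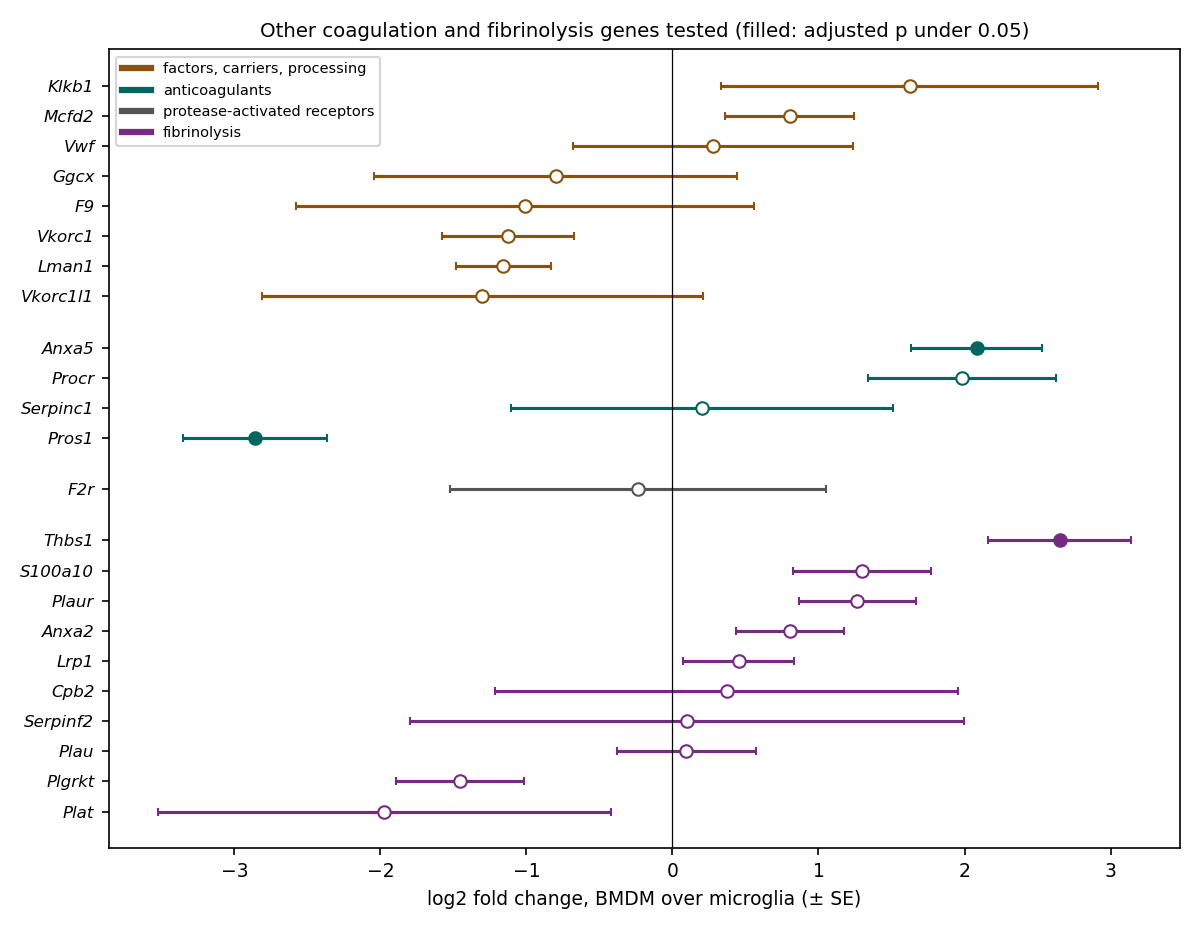
log2 fold change, BMDM over microglia, with its SE, of the 23 tested genes of the 4 wider lists (colors), filled where the edgeR adjusted p was under 0.05. *Anxa5* and *Thbs1* lie right of 0 (higher in BMDM) and *Pros1* left of it.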

How the data were processed

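The 3′ ends of mRNA were sequenced from 5 BMDM and 3 microglia libraries. Raw counts for every gene were deposited in 1 table as whole numbers, not normalized. STAR, featureCounts, cutadapt, FastQC, DESeq2 and the mm10 build are listed in the submitters' processing notes. Versions, the strand setting and the handling of reads with several matches are not given in the sources used here. All 55450 identifiers matched GENCODE M21 (GRCm38), the source of positions. Annotated genes that overlap *F13a1* and *F5* had at most 4 counts in all. They lie on the opposite strand, except the pseudogene *Gm16588*, on the strand of *F5*, with 0 counts. The other genes of the rule overlap no annotated gene.

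Counts were tested with edgeR 4.0.16 (R 4.3.3): filterByExpr (minimum count 10, minimum total 15), TMM factors, robust quasi-likelihood fits, Benjamini-Hochberg adjustment over all genes tested, threshold 0.05. The difference is BMDM minus microglia, and SEs come from the F statistic. Log2 CPM for patterns used a prior count of 2, over named protein-coding genes averaging 20 CPM or more. No pair of libraries was alike within sampling noise (chi-square per degree of freedom at least 21.1). Scripts were tested on simulated counts. DESeq2 1.42.0, limma 3.58.1 (voom), other scalings and filters, a replicate block, BMDM 1 to 3 alone and each library left out were alternatives. The genes of the rule, the lists and the markers were chosen with earlier results of these data known. Named beside the genes of the rule are the called genes and up to 4 uncalled genes of highest mean CPM per list, and the 3 nearest patterns. Genes outside this, such as the ones with few or no counts, were named after their values were seen. A pair of genes of the lists is not reported here and was left out of the list counts. Floors (3 counts) cover counting error only. Promoter sequences (RefSeq) were found for 7 of the 8 genes.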

Additional observations from a re-analysis of the deposited data

Results flagged for a closer look

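Among 31 tested genes of clotting and fibrinolysis, 3 had 1 BMDM library far from the other 4, judged by the gap to its nearest neighbor as a share of the group's range (Dixon's criterion for 5 values). For normally distributed values chance gives about 1 in 20 groups. The values here were CPM on a linear scale, some of them 0, and the share that chance gives for such values was not tested. *F7* stood at 84.1 CPM in BMDM 2, against 4.46 to 27.5 in the other BMDM, just past that criterion (0.711). *Plau*, which encodes urokinase, stood at 91.8 CPM in BMDM 4, against 18.4 to 35.8 in the other BMDM (0.763). *Plat*, tissue plasminogen activator, stood at 3.57 CPM in BMDM 2, against 0 to 0.932 in the other BMDM (0.739).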

How the results depend on the processing

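All 8 genes of the rule kept their direction under every alternative that gave a value (*F3* gave none with at least 10 CPM in 3 libraries). The calls of *F10* and *Pros1* held throughout. DESeq2 called 601 genes higher and 313 lower, 5.55% of all, with 1 of the 8 lower: *F5* (2.28) and *Serpine2* (-2.42) were added. It called 1 of the processing list lower, and 2 anticoagulants and 2 fibrinolysis genes higher in all, of which *Procr* and *Plaur* were not called by edgeR. With limma-voom 266 genes were lower (2.59% called in all), and *Tfpi* was added at -5.20 (1 lower). With quality weights 1063 were higher and 1685 lower (16.7%), and 3 of the 8 were lower: *F3* (-3.32), *Tfpi* (-3.37) and *Serpine2* (-2.15), with *F5* (2.03) higher. The lists then had 1 processing gene each way, and 2 fibrinolysis genes higher and 1 lower. No filter gave 403 higher and 318 lower (2.31%), with 1 fibrinolysis gene lower. Library totals alone moved the median of all genes from 0.08 to 0.20 and gave 0 anticoagulants higher. BMDM 1 to 3 alone gave 1028 and 1312, with 2 of the 8 lower, 1 processing gene each way, 2 fibrinolysis genes higher and 1 lower, and *F3* (-2.93), *F5* (2.28) and *Serpine2* (-2.20) added.

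Shared replicate numbers do not show pairing: the deviations of libraries 1, 2 and 3 correlated with their own number at 0.279, 0.129 and -0.006. In the replicate block, BMDM 4 and BMDM 5 have no partner. It gave 1449 higher and 1774 lower genes (19.6%), 5 of the 8 higher and 1 lower, with *F7* (6.04), *F5* (2.41) and *Serpine2* (-2.18) added, 1 processing gene each way, 2 anticoagulants higher, and 3 fibrinolysis genes higher and 1 lower.

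Leaving out 1 library gave 58 to 536 genes higher and 46 to 602 lower, the low ends without microglia 3 and the high ends without BMDM 5. Of the 8 genes 1 (without microglia 1) to 4 (without microglia 2) were higher and 0 to 1 lower. Processing genes were 0 higher and 0 to 1 lower, anticoagulants 0 to 1 higher, and fibrinolysis genes 0 to 1 higher and 0 to 1 lower. Log2 fold changes ran from -3.33 to -2.05 for *F3*, 4.07 to 11.16 for *F7*, 1.76 to 2.57 for *F5*, 4.94 to 6.69 for *F13a1*, 3.98 to 5.80 for *Thbd*, -3.34 to -2.35 for *Tfpi* and -2.93 to -2.23 for *Serpine2*. The value of 11.16 is set by the prior count, since microglia 1 and 3 had 0 counts. The causes were not tested.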

Other observations

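*F8*, the gene of factor VIII, did not pass the filter on low counts and was picked after its values were seen. It had 1, 2, 0, 0 and 0 counts in BMDM 1 to 5, against 98, 27 and 7 counts in microglia 1 to 3, or 0 to 0.246 CPM in BMDM and 0.779 to 5.15 CPM in microglia. Plasminogen, *Plg*, had 0, 33, 0, 0 and 3 counts in BMDM 1 to 5, against 0, 0 and 4 in microglia 1 to 3. *Serpinb2*, which encodes a serpin, had all of its 23 BMDM counts in BMDM 4, against 13 counts in microglia 1 and 0 in the other microglia.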
